A study of Drosophila melanogaster with 2 samples.

Results

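The 10 genes described here encode subunits and partners of cytoplasmic dynein, the motor that walks along microtubules towards their minus ends. They are Dhc64C, sw, Dlic, ctp and robl for the motor itself, DCTN1-p150 and DCTN2-p50 for its cofactor dynactin, and Lis-1, nudE and BicD for regulators and an adaptor. Ftz-F1 binding was mapped by chromatin immunoprecipitation and sequencing in whole Drosophila melanogaster embryos of both sexes, collected over 0 to 24 h. The flies carried a transgene for Ftz-F1 with a C-terminal eGFP tag, in 1 line, and an antibody to GFP pulled down the chromatin. All material belongs to a single group of 2 biological replicates, called replicate 1 and replicate 4, and no conditions could be compared. Each gene was taken as its body plus 2000 bp upstream, and every peak summit inside that window was counted, out of 13945 protein-coding genes treated the same way. The genes were chosen by peak signal values in these same lists, because a strong peak in Dhc64C was already known, so the values below are a description and carry no test. Whole embryos hold many cell types, and a strong signal in few cells cannot be told apart from a weak signal in many.

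Ftz-F1 is an orphan nuclear receptor that binds DNA as a monomer, and it is known for its roles in embryonic segmentation and in the timing of ecdysone responses. Cytoplasmic dynein is built around a pair of heavy chains that hydrolyse ATP, with intermediate, light intermediate and light chains on the tail. Dynactin tethers the motor to cargo and to the microtubule. In the fly embryo this transport moves nuclei, organelles and localized messenger RNAs.

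The sequences shown come from peaks of Dhc64C and ctp. They were read from the plus strand of the release 6 assembly (dm6 coordinates). Capitals mark the Ftz-F1 site (C or T, then CAAGG, then C or T, then C, then A or G) and the shorter core AAGGTC. Each was sought on both strands, so a site on the minus strand appears as its reverse complement. The windows are chr3L:4824407-4824705, chr3L:4825685-4825984, chrX:4688054-4688204 and chrX:4690948-4691098, in that order.
Dhc64C intron peak: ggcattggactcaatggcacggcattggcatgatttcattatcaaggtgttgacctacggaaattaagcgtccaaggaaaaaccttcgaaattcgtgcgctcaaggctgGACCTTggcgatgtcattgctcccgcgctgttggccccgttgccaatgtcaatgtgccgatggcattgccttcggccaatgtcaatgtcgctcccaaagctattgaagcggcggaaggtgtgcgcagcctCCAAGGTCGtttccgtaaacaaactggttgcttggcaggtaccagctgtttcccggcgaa
Dhc64C promoter peak: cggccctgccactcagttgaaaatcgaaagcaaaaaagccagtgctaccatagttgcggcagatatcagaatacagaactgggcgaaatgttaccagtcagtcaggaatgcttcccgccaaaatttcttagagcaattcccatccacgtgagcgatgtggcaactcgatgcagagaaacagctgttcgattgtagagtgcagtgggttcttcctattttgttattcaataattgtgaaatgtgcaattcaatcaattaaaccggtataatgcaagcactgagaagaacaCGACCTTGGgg
ctp promoter peak: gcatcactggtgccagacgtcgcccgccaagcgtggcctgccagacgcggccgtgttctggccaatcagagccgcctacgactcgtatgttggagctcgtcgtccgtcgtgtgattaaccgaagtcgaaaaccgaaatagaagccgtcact
ctp intron summit: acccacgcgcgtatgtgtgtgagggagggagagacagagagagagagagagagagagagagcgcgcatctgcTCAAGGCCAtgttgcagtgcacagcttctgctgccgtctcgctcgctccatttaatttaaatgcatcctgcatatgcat
The Dhc64C intron window holds the site CCAAGGTCG and, on the minus strand, a second AAGGTC core. The Dhc64C promoter window holds CCAAGGTCG on the minus strand near its right end. The shorter ctp promoter window has no match, and the ctp intron window holds TCAAGGCCA beside a run of GA repeats. The windows differ in length, and those of the Dhc64C promoter and the ctp intron were drawn to show a known site. Matches therefore cannot be compared between these windows. Within 100 bp of the summit, neither promoter peak had the site or the core. That ctp intron summit is weak and lies outside the thresholded list described below. The strongest ctp peak, at X 4686374, is not shown.

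The authors deposited a list of peaks thresholded by irreproducible discovery rate, a measure of how well peak ranks hold up across replicates, called the IDR list here. It holds 3960 peaks, all found in the pooled list. The pooled list and the list of each replicate hold 30000 entries each, peaks together with background regions. The authors' signal value has no stated scale, so it was compared within 1 list or through ranks, and read depth is unknown. The lowest signal value in the IDR list was 91.8 and the median 131. The member windows held 4 IDR summits, 34 pooled summits, 36 summits of replicate 1 and 36 of replicate 4.

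Dhc64C (FBgn0261797, 3L, 4807368 to 4825687, minus strand), the gene for the motor's heavy chain, carried the strongest of these peaks by a wide margin. Its summit lay at 3L 4824556, in the first intron (4824162 to 4825327, 1166 bp), which is an intron in all 8 annotated transcripts. That is 1131 bp downstream of the transcript start that all of them share. The signal value was 999 in replicate 1, where it ranked 4, and 1111 in replicate 4, where it ranked 5. In the pooled list it was 2092, which again ranked 5, or 15.9 times the median of the IDR list. Both replicates thus placed this peak among their strongest 5. The summits of the lists lay close together, at 4824535 in replicate 1 and at 4824557 in replicate 4. The peak was 636 bp wide in the pooled list, 596 bp in replicate 1 and 624 bp in replicate 4, and 49 of 3960 IDR peaks (1.24%) were as wide or wider. The peaks next to it in rank had signal values of 2093 (rank 4) and 1929 (rank 6).

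A second IDR summit of Dhc64C lay at 3L 4825771, 84 bp upstream of its start, in the space it shares with LeuRS-m, the gene for the mitochondrial leucyl-tRNA synthetase. LeuRS-m (FBgn0027085) starts 166 bp away from Dhc64C and runs the other way, so its start was the nearer one, at 82 bp. The replicate summits were also nearer to LeuRS-m, at 64 bp against 102 bp in replicate 1 and 51 bp against 115 bp in replicate 4. This promoter peak had a signal value of 54.02 in replicate 1 (rank 3175) and 48.4 in replicate 4 (rank 3988), and 103.8 in the pooled list (rank 3171). The intron peak was 20.2 times as strong as this promoter peak in the pooled list, 18.5 times in replicate 1 and 23.0 times in replicate 4. The strongest Dhc64C signal lay inside the gene and not at its start. The gene body beyond the intron peak, from its edge to the 3' end of the gene (16863 bp or 92.05% of the gene), held no summit in any of the 4 lists.

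Of the 10 genes, 2 held an IDR summit, Dhc64C and ctp. Among all protein-coding genes the share was 26.1%, so a count of 2 in 10 is near the background and is no result about these genes. Long windows held summits more often, 46.2% of windows of 10 kb and over against 22% of shorter ones. The windows of Dhc64C, sw, Dlic, ctp and BicD were of 10 kb or over and 2 of these 5 held one, while the 5 shorter windows held none. The other 8 genes, among them the motor subunits sw, Dlic and robl, had summits outside the IDR list only.

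**Figure D1:**
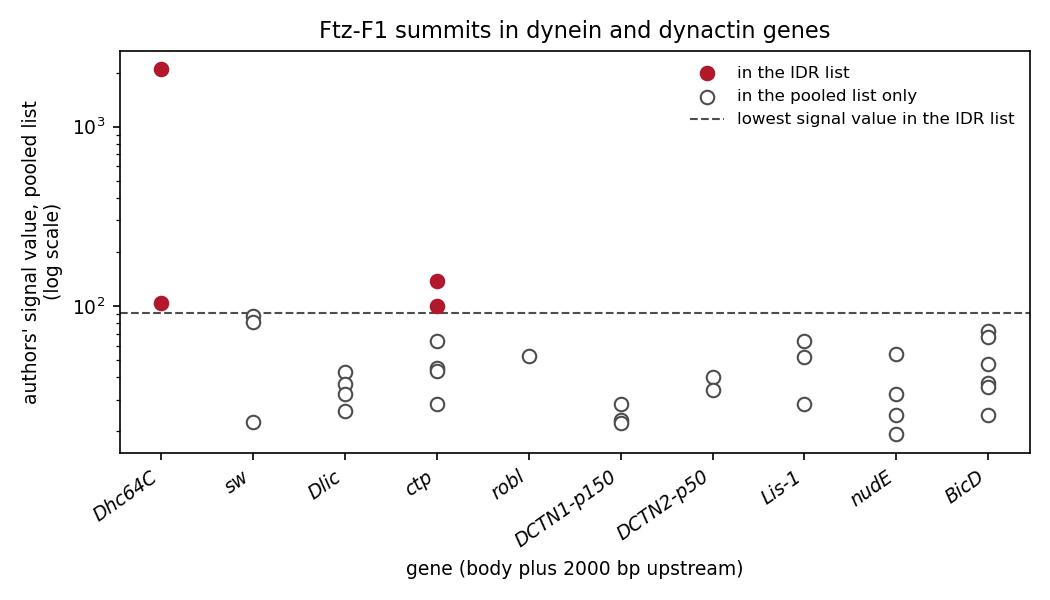
Signal value of each pooled summit (log scale) in the window of each gene, filled where the peak is in the IDR list. Each point is 1 peak of both replicates pooled. The Dhc64C intron peak stands at 2092, the other IDR summits between 100.05 and 137, and all other summits below the dashed line at 91.8.

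The remaining motor subunits had much weaker peaks. In ctp (FBgn0011760, X, 4687800 to 4702034, plus strand), which encodes the LC8 light chain, the strongest summit lay at X 4686374, 1426 bp upstream of the gene, with signal values of 67.4 in replicate 1 (rank 2018) and 73.1 in replicate 4 (rank 1886). Its pooled signal value was 137 (rank 1810). That summit lies in the body of the neighbour Pp2C1, a gene for a protein phosphatase, 529 bp from the start of Pp2C1. The other ctp summit in the IDR list, at X 4688129, lay 74 bp from a transcript start of ctp itself, inside the first intron of 1 of its 5 transcripts. It had signal values of 54.9 in replicate 1 (rank 3069), 48.5 in replicate 4 (rank 3957) and 100.05 in the pooled list (rank 3399). The Dhc64C intron peak was 15.3 times as strong as the strongest ctp peak in the pooled list, 14.8 times in replicate 1 and 15.2 times in replicate 4. The IDR peaks within 500 bp of a start of Dhc64C and of ctp were close in signal value, at 103.8 and 100.05. The first of these lay nearer to the start of LeuRS-m.

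The other 4 pooled summits of ctp were below the IDR list. The one at X 4686589 (63.6, rank 7046) lay in Pp2C1, and the others were in introns of ctp at X 4691021 (44.9, rank 11401) and X 4693347 (28.3, rank 19318) and in its 3' UTR at X 4699871 (43.2, rank 11953). The summit at X 4691021 is the only one of the weaker member summits that had the Ftz-F1 site within 100 bp. It ranked 15478 in replicate 1 and 11348 in replicate 4.

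The intermediate chain gene sw (FBgn0003654, X, 20227961 to 20236382, minus strand) came nearest to the IDR list without entering it. Its start summit, at X 20236345 and 37 bp inside the gene, had signal values of 38.0 in replicate 1 (rank 6041), 51.2 in replicate 4 (rank 3585) and 88.0 in the pooled list (rank 4247). A second one at X 20238083, 1701 bp upstream and 829 bp from the start of the non-coding gene lncRNA:CR45465, had 33.1 in replicate 1 (rank 7597), 50.5 in replicate 4 (rank 3674) and 81.4 in the pooled list (rank 4837). Both stood within the strongest 3960 of replicate 4 but not of replicate 1. The IDR list ended at rank 3960 with a signal value of 91.8, just above these summits. The weakest sw summit, in a coding exon at X 20235546, had 22.5.

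Dlic (FBgn0030276, X, 11154421 to 11164670, plus strand), for the light intermediate chain that binds cargo adaptors, had 4 pooled summits with signal values between 25.9 and 42.8 and ranks from 12084 to 21171. The highest, at X 11153252, lay in rtv, 322 bp from its start, and those at X 11154364 and X 11154687 lay 57 bp upstream and 266 bp downstream of a Dlic start. The light chain gene robl (FBgn0024196, 2R, 17456472 to 17457129, plus strand) had a single pooled summit, 67 bp inside the gene, with a pooled signal value of 52.4 (rank 9320). The robl summit had 39.3 in replicate 1 (rank 5689) and 10.7 in replicate 4 (rank 29645), and rank 29645 is near the end of that list of 30000. Its start region also holds the start of robls54B, a gene of the same light chain family on the other strand. The replicates differed most in rank at robl and at the start of BicD.

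The dynactin genes had only weak summits. DCTN1-p150 (FBgn0001108, 3L, 13929387 to 13934656, plus strand), for the large subunit known as Glued that contacts microtubules and the dynein intermediate chain, had 3 pooled summits with signal values of 28.3, 23.0 and 22.4. The highest ranked 19349 and lay in the neighbour CG8833, and the next lay 14 bp upstream of the DCTN1-p150 start. DCTN2-p50 (FBgn0021825, 2R, 8891832 to 8893339, plus strand), for the dynamitin subunit, had summits of 40.1 (rank 13061), 34 bp from the start of CG8272, and of 34.2 (rank 15663), in a coding exon. The first of these overlapped no entry of replicate 1, and in replicate 4 it had 32.5 (rank 7531). DCTN1-p150 had the lowest top signal of the 10 genes in the pooled list and in replicate 1, where the Dhc64C intron peak was 73.9 times and 53.3 times as strong. In replicate 4 the lowest was that of robl, and the Dhc64C intron peak was 104.2 times as strong as robl and 57.5 times as strong as DCTN1-p150.

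Lis-1 (FBgn0015754, 2R, 16178826 to 16185103, plus strand), whose product binds the dynein motor domain, had its highest summit 158 bp upstream of a start, with signal values of 45.4 in replicate 1 (rank 4427), 23.8 in replicate 4 (rank 11675) and 63.6 in the pooled list (rank 7050). Its other summits, at 2R 16180602 and 2R 16181302, had pooled signal values of 52.0 and 28.3. The gene nudE (FBgn0036059, 3L, 9899241 to 9903031, plus strand), whose product bridges Lis-1 and dynein, had a summit 7 bp from its start with 29.5 in replicate 1 (rank 8895), 24.2 in replicate 4 (rank 11442) and 54.2 in the pooled list (rank 8923). The other 3 nudE summits had between 19.2 and 32.4, and the weakest overlapped no entry of either replicate.

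BicD (FBgn0000183, 2L, 17459605 to 17473215, minus strand), the adaptor that couples dynein to vesicles and to localized messenger RNAs, had its strongest pooled summit in the first intron, as Dhc64C did. That summit, at 2L 17466532 in an intron of 7541 bp, had signal values of 37.3 in replicate 1 (rank 6242), 26.2 in replicate 4 (rank 10294) and 72.0 in the pooled list (rank 5899). The Dhc64C intron peak was 29.0 times as strong in the pooled list. A BicD summit at 2L 17473355, 140 bp upstream of BicD and 135 bp from the start of Sgt on the other strand, had 50.5 in replicate 1 (rank 3636) but 14.9 in replicate 4 (rank 20794), and 67.1 in the pooled list. In replicate 1 it was the strongest BicD summit, above the intron summit, and stood within the strongest 3960. The other 4 BicD summits had between 24.8 and 47.7.

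**Figure D2:**
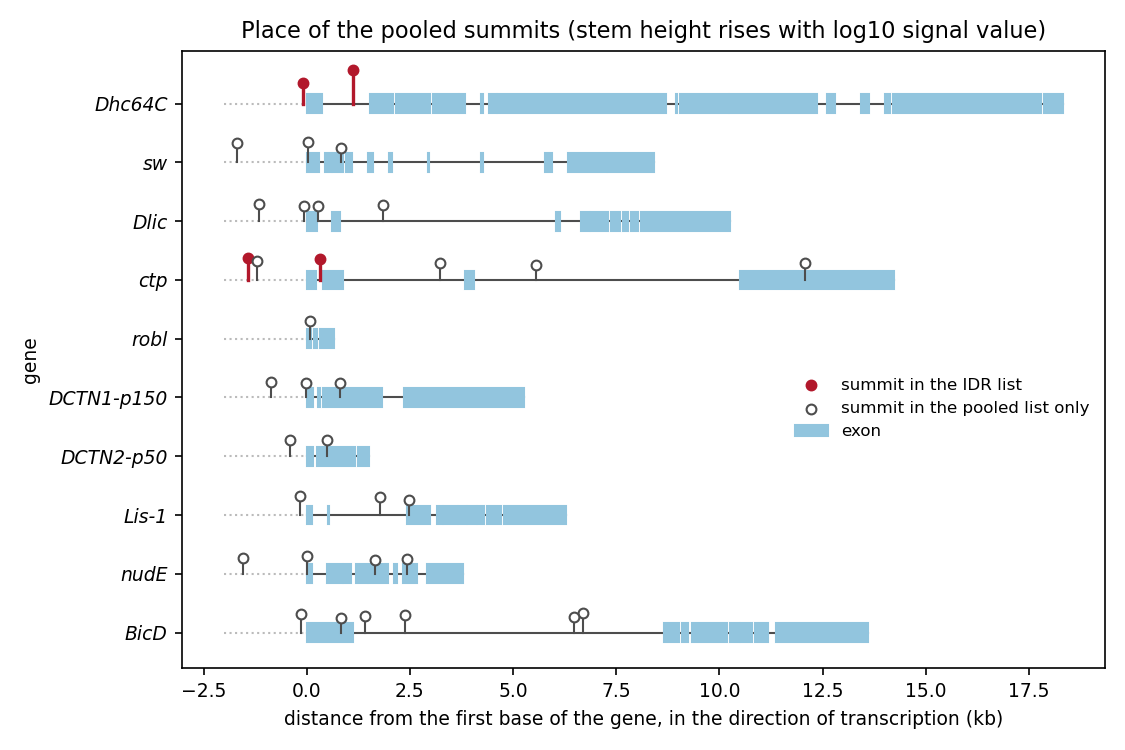
Position of the pooled summits along each gene, in kb from the first base of the gene in the direction of transcription, with exons of all transcripts as boxes. The dotted line is the 2000 bp upstream, and stem height rises with the log10 of the signal value. The strong Dhc64C peak stands in the first intron at 1131 bp, and the gene has no summit from there to its 3' end.

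All 10 genes had a pooled summit in the window, against 69.1% of protein-coding genes, and all 10 had one within 500 bp of an own transcript start, against 57.8%. The windows of the 10 were longer, with a median of 9350 bp against 4166 bp for all protein-coding genes. The pooled list includes background regions, and no pooled share for windows matched in length was computed, so these counts are a description only. In the pooled list 17 of the 34 summits (50%) lay within 500 bp of a transcript start of any gene, against 39.0% of all pooled summits. Each window includes a gene start by its definition, whereas all pooled summits include intergenic ones, so these shares have unlike bases. The nearest start belonged to another gene for 15 of the 34, and no background share was computed for this count. The windows held 3.32 pooled summits per 10 kb, against 2.24 over the chromosome arms, with the lowest density in Dhc64C (0.984) and the highest in nudE (6.91). The arms include intergenic sequence, whereas each window is a gene with its upstream region, so these densities have unlike bases. Dhc64C had the strongest peak and the lowest density of summits of the 10.

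Replicates ranked the summits of the 10 genes unevenly below the IDR list. Of the 34 pooled summits, 26 overlapped an entry of each replicate, 7 of 1 replicate only and 1 of neither, taking the nearest overlapping entry by at least 1 bp, so that 1 entry can stand for more than 1 summit. Of the 26, 16 ranked higher in replicate 1 and 10 in replicate 4, and the ranks differed by over 1.5 times for 11. The 4 IDR summits all differed by less than that. The IDR list was itself thresholded on how well ranks hold up across replicates, so this is no separate result. Overlaps and rank differences were not counted over all pooled summits, so these counts describe the 34 and show no trait of these genes. The widest differences were at BicD (5.72 times, start summit) and robl (5.21 times). By the strongest 3960 of replicate 1, Dhc64C, ctp and BicD held a summit (26.7% of protein-coding genes), and by those of replicate 4 Dhc64C, sw and ctp did (25.3%).

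**Figure D3:**
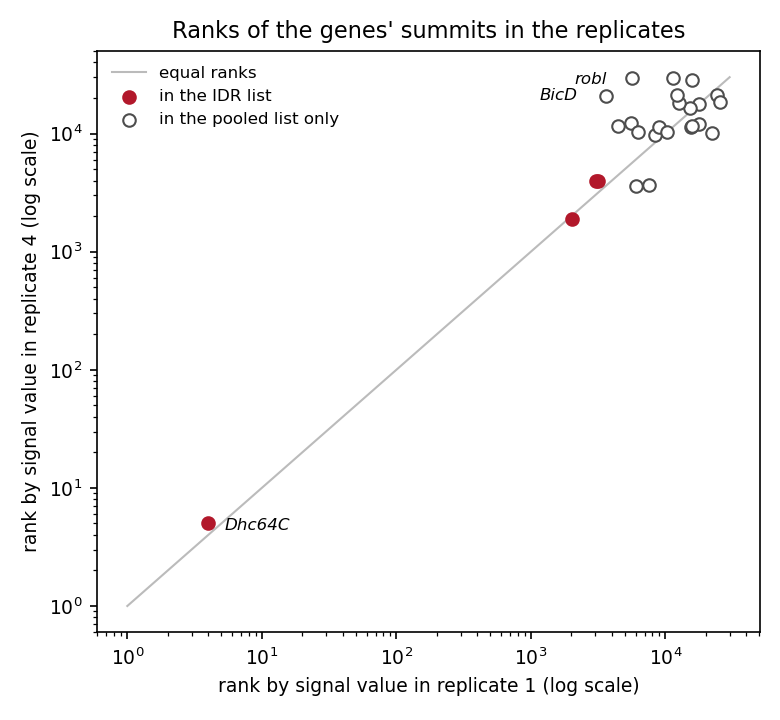
Rank by signal value in replicate 1 and in replicate 4 (log scales, 1 is strongest) for the 26 pooled summits that overlap an entry of each, filled where in the IDR list. The line marks equal ranks. Dhc64C lies at ranks 4 and 5, far from all others, and robl and BicD lie farthest above the line.

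The Ftz-F1 site was then sought within 100 bp of each summit. Of the 4 IDR summits of the 10 genes, the Dhc64C intron summit alone had it, and of the other 30 pooled summits the ctp intron summit at X 4691021 alone did. The site is uncommon at peaks in general. It was found at 6.54% of IDR summits (95% Wilson interval 5.81 to 7.35, counting error only), at 14% of the strongest 100 (8.53 to 22.1) and at 2.96% of the other pooled summits. The Dhc64C site, at 3L 4824646 to 4824654 on the strand opposite to the gene, lay toward the edge of the window and not under the summit. It was 94 bp from the pooled summit, 93 bp from that of replicate 4 and 115 bp from that of replicate 1, which puts it outside the 100 bp window there. The stricter CAAGGTCA was at none of the 34 summits, against 4.02% of IDR summits and 1.63% of the other pooled summits. The ctp site lay 3 bp from its summit.

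Closer to the Dhc64C summit were imperfect versions of the site, a feature singled out after its values were seen. Within 100 bp of that summit 6 matches with at most 1 mismatch were found, 5 of them on the plus strand and 5 of them within 50 bp of the summit. They were TCAAGGCTG at 45 bp, CCAAGGTCC on the minus strand at 37 bp, CCAATGTCA at 6 bp and again at 39 bp, TCAATGTCG at 45 bp, and the exact site CCAAGGTCG at 94 bp. Some of these overlap each other, so they are not 6 separate sites. The window also holds an exact direct repeat of 14 bases, with copies 33 bp apart at 3L 4824557 and 3L 4824590, and each copy carries 1 CCAATGTCA:
repeat in the Dhc64C intron peak: GCCAATGTCAATGT
A direct repeat of that length or longer was found at 40 of 3960 IDR summits (1.01%). The median IDR summit had no match with at most 1 mismatch. At least 1 such match was found at 37.1% of IDR summits and at 69% of the strongest 100. Of all 3960, 3 (0.0758%) had 6 or more. The other 2 of these ranked 1008 and 3003 by signal value, so a high count of such matches also occurs at weaker peaks. The core AAGGTC was present 2 times at the Dhc64C summit, and 34 IDR summits (0.859%) had as many. At least 1 AAGGTC was found at 13.6% of IDR summits and at 8.33% of the other pooled summits, and it overlaps both the Ftz-F1 site and AGGTCA.

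**Figure D4:**
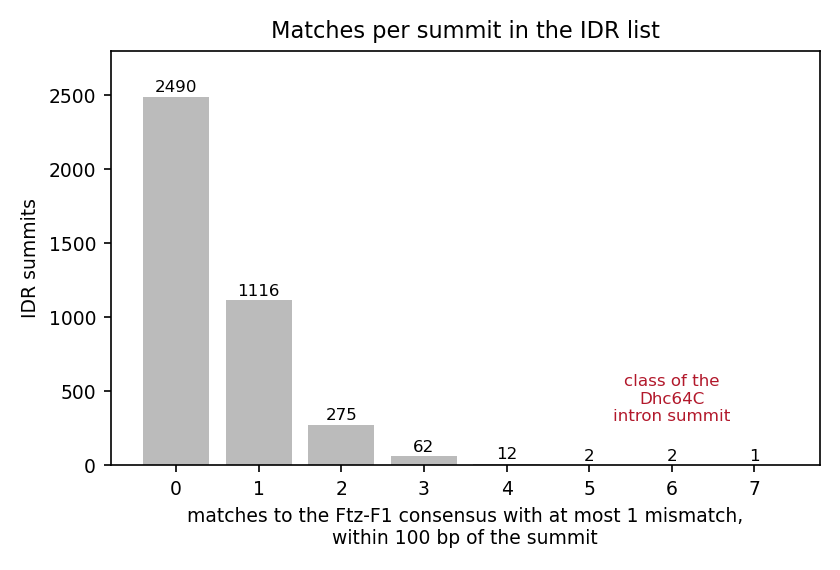
Number of IDR summits by the number of matches to the Ftz-F1 site with at most 1 mismatch within 100 bp of the summit. Bars count summits. The Dhc64C intron summit is 1 of the 2 summits with 6 matches, and 2490 of 3960 summits have 0.

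Over the whole windows of the 10 genes there were 11 exact sites, or 1.07 per 10 kb, against 0.514 over the arms. The arms also hold intergenic sequence, so the bases of these densities are unlike. Dhc64C held 6 of them, sw, Dlic, ctp, DCTN1-p150 and BicD held 1 each, and robl, DCTN2-p50, Lis-1 and nudE held 0. Of the 6 in Dhc64C, 4 lay in coding exons with no peak over them in any list. The other 2 were both CCAAGGTCG, 1328 bp apart on opposite strands. One is the intron site, and the other lies at 3L 4825974 to 4825982, inside the promoter peak in all 4 lists but 207 bp from its pooled summit and 125 bp into LeuRS-m. CCAAGGTCG occurs anywhere in 31 of 3960 IDR peaks (0.783%), and 26 of the protein-coding gene windows (0.186%) hold it 2 or more times. That spelling was picked because Dhc64C has it, so its rarity is a description only. The Ftz-F1 site in any of its spellings occurs anywhere in 348 IDR peaks (8.79%). Of all 6878 exact sites on the arms, 4.09% lay within 100 bp of an IDR summit and 15.8% within 100 bp of any pooled summit, so most sites had no listed summit near them.

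Other short sequences known from fly promoters were also sought at the 34 summits, of which 30 are outside the IDR list. GAGAGA, bound by GAGA factor, was at 3 of the 34 (15.7% of IDR summits and 10.3% of other pooled summits have it), with 11 overlapping matches at the ctp intron summit. GGTCACACT, bound by the promoter factor M1BP, was at 1 of the 34, the Dlic start summit at X 11154364 (3.43% of IDR summits and 1.33% of other pooled summits). TATCGATA, bound by DREF, was at 0 of the 34 (3.79% of IDR summits and 1.80% of other pooled summits). Each was sought on both strands within 100 bp.

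The 2000 bp limit left out 1 strong peak. At ctp a summit of the IDR list at X 4684770, 3030 bp upstream of the gene and inside Pp2C1, had a pooled signal value of 249 (rank 503), above either ctp summit counted here. The next summits beyond the upstream edges, 2421 bp from sw and 2501 bp from BicD, had 24.2 and 31.4. Just inside were the sw summit at 1701 bp (81.4) and a nudE summit at 1535 bp (32.4), the second in an intron of CG6707. The nearest summit beyond Dhc64C on its upstream side was 14780 bp from the gene (45.4).

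Other genes of the same transport system were counted by the same rule. Of 63 genes in 4 lists, 59 could be located on the analysed arms, and 20 of these (33.9%) held an IDR summit, against 26.1% of protein-coding genes. Their median window was 6486 bp against 4166 bp for all protein-coding genes, and longer windows held summits more often. No related gene came near the Dhc64C intron peak, since the highest signal value was 528. Among the other dynein subunits 3 of 11 held one, at Dlc90F (486, rank 98), robl37BC (293, rank 329) and Dhc16F (143, rank 1643). All 3 summits lay closer to a start of a different protein-coding gene, such as RpL30 at robl37BC and Sh at Dhc16F. Of the 6 heavy chain genes in that list, which serve cilia and flagella, 5 (btv, Dhc36C, Dhc62B, Dhc93AB and Dhc98D) had no pooled summit in windows of 14.6 to 34.4 kb. These 5 had no summit in replicate 1 and 2 in replicate 4, at Dhc36C (15.6, rank 19722) and Dhc93AB (24.2, rank 11393). Among all protein-coding windows of at least that length 257 of 1602 had none. The window of Dhc64C, the heavy chain gene of cytoplasmic transport, had 2.

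Among the other dynactin subunits 1 of 8 held an IDR summit. This was DCTN5-p25, a subunit of the pointed-end complex, with a signal value of 149.3 (rank 1524) in intergenic sequence 1737 bp from its start, and 2 exact Ftz-F1 sites lay within 100 bp. Among other adaptors and regulators 7 of 17 did. The highest was Miro, whose product anchors mitochondria to the motors, with 528 (rank 82) at 20 bp from its own start and with a site. Next came rod, a kinetochore recruiter of dynein, with 442 (rank 122), also with a site but 102 bp from the start of pygo, then Girdin with 310 (rank 285) in an intron and nudC with 270 (rank 405), with a site, in an intron and nearest to CG9674. Of 23 genes listed for kinesins, the other family of motors on microtubules, and their partner subunits, 9 held an IDR summit. The highest were nod (247), Klp10A (234), neb (221, nearest start fok) and cana (177), all within 500 bp of a start and with no site. Over the 4 lists the strongest IDR summit was nearest to the gene's own start in 13 of 20 genes.

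**Figure D5:**
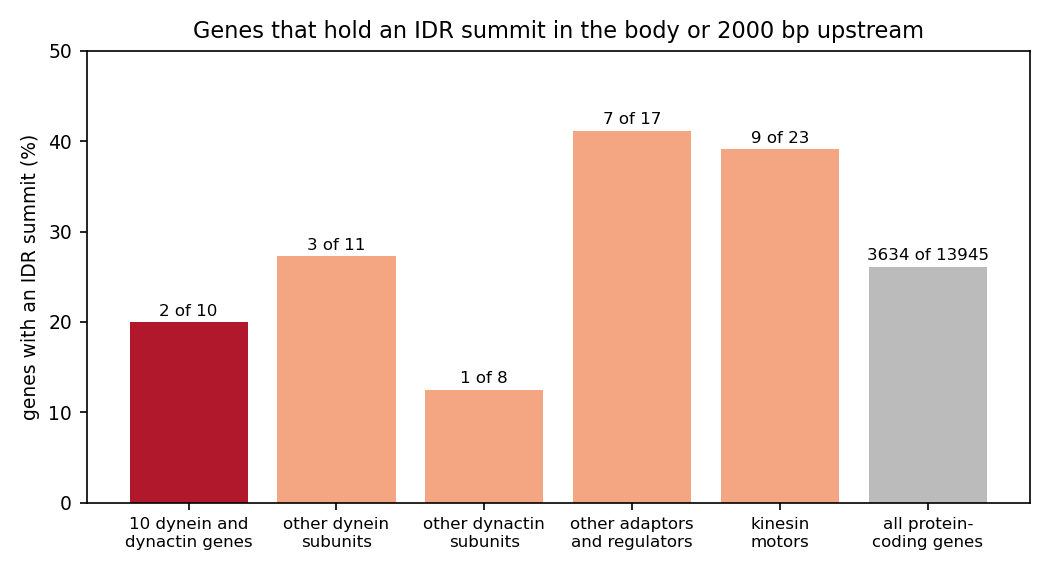
Share of genes (%) that hold an IDR summit in the body or 2000 bp upstream, for the 10 dynein and dynactin genes, the 4 lists of related genes and all protein-coding genes, with counts above the bars. The 10 genes stand at 20%, below the background of 26.1%, and the adaptors and regulators at 41.2%. The bars show counts of genes with no replicate error, and differences between them were not tested. Window lengths were not matched between the groups.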

How the data were processed

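Ftz-F1-eGFP chromatin from 2 biological replicates was analysed from the deposited peak lists in dm6. A file listing that the authors deposited records that the replicate and pooled lists were input to the IDR analysis and that the IDR list derives from them. Besides the replicates' alignments, each of these input lists drew on 1 further file, which also entered the control-normalized tracks. No source used here names the aligner, the peak caller or the cutoff for the IDR. Signal values are those the authors deposited, on an unstated scale. The −log10 q-value deposited by the authors, read by the usual column order of narrowPeak files, reached 4.18, shared by 7579 pooled peaks, so it could not rank strong peaks. The summit is the position the authors deposited inside each peak, given 1-based. Read depth is unknown.

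Gene models were Ensembl release 115 (BDGP6.54), without transposable elements, and sequence was the release 6 assembly, which shares dm6 coordinates. Unplaced sequence and the Y were left out. The dm3 lists were not used here. Positions, overlaps and sites were computed in Python 3.11.15 with pandas 2.3.3 and numpy 2.4.6, and Wilson intervals with scipy 1.17.1, after tests on planted sites and summits. The replicates are labelled as separate biological samples, and nothing says that they came from separate fly cultures. The genes, the related lists and the named genes (all members, up to 4 per list by IDR signal value, neighbours with a nearer start) were chosen with earlier results of these data known. Of the related genes 2 were matched through a synonym, and 4 could not be placed on the arms. No test was run.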

Additional observations from a re-analysis of the deposited data

How the results depend on the processing

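The count of 2 genes with an IDR summit stayed at 2 with the gene body alone, 5000 bp upstream, assignment by nearest or own start, the IDR peaks above the median signal and 1 peak per run of overlapping peaks. It was 3 in each replicate's own strongest 3960, and 10 over the whole pooled list, which includes background regions. The 4 summits became 2 with the body alone, by nearest protein-coding start, within 500 bp of an own start and among the IDR peaks above the median signal, 34 over the whole pooled list, and 5 with either replicate left out. The rank of the Dhc64C peak was 5, and 4 to 5 with 1 replicate left out. Its signal was 15.3 times that of the next gene, 20.9 times with the body alone or by nearest start, 8.40 times with 5000 bp upstream, and 14.8 to 15.2 times with 1 replicate left out. Within 500 bp of own starts, where the intron peak is not counted, it was 1.04 times. The count of 1 gene with a site became 0 within 500 bp of own starts, with a 50 bp motif window, with CAAGGTCA only and without replicate 4 (0 to 1 over the replicates), and 2 over the whole pooled list. The count of 20 related genes became 13 with the body alone and 47 over the whole pooled list, and ran from 18 to 23 with 1 replicate left out. Ranking by another column was not run, since the score, p-value and q-value columns each hold a single value over the IDR list. No paired analysis was possible because there is 1 group. Without read counts, a gene with no listed summit is only a gene with no entry in these lists.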
